A study of Homo sapiens with 48 samples.

Results

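The genes of the Notch pathway were examined in RNAseq of PSN1, a pancreatic ductal adenocarcinoma cell line, and of its derivatives. These had been selected for resistance to Talazoparib, an inhibitor of the DNA repair enzyme PARP. The members are 34 genes chosen by name from the core of the pathway. All 34 had a row among the 20241 genes of the deposited table, and 30 of them were among the 12471 genes tested. They comprise 4 receptors, 5 ligands, 4 glycosyltransferases, 5 proteases or protease subunits, 5 genes of the nuclear complex, 5 target transcription factors and 6 feedback and trafficking regulators.

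Notch receptors are membrane proteins that are switched on by ligands of the Jagged and Delta-like families on a neighbouring cell. Ligand binding lets ADAM metalloproteases and then the γ-secretase complex cut the receptor, and the freed intracellular domain enters the nucleus, joins the DNA-binding protein RBPJ and a Mastermind co-activator, and switches on genes of the HES and HEY families. Notch signalling holds back acinar differentiation in the developing pancreas and is often active again in pancreatic ductal adenocarcinoma.

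Parental cells were untreated and labelled wild type. TalaR-M cells were resistant cells kept in 50 nM Talazoparib for 4 months. TalaR-DF cells came from resistant cells and were then grown without the drug. The paper reports that resistant cells of this line, after weeks off the drug, regained nearly the Talazoparib sensitivity of parental cells. The word resistant is therefore used here for the origin of TalaR-M and TalaR-DF cells, not for their sensitivity when sampled. Whether the Notch differences follow drug sensitivity was not tested. Resistance had been raised by stepwise exposure, the resistant cells were not described as 1 clone, and all 3 groups derive from the same line. Each group had 3 replicates, 9 libraries of the 48 in the series. Nothing states that replicates came from separate cultures, so the p-values measure only the spread between these libraries.

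The values are log2 CPM, where CPM scales the reads of a gene to the size of its library, and a value of 0 stands for 1 CPM or less. A gene was called where limma gave a Benjamini-Hochberg adjusted p under 0.05 over all genes tested and a change of at least 2-fold. The libraries held between 8387755 and 14973847 reads on genes above 1 CPM. The lowest total was that of TalaR-M replicate 2, which stood apart from every other library: its correlation with the other TalaR-M libraries was 0.780, where replicates otherwise correlated at 0.993 to 0.997. Relative to those other TalaR-M libraries it read high for genes of short transcript (median log2 deviation 1.37 for the shortest 10%) and low for genes of long transcript (median -1.45 for the longest 10%). The TalaR-M result of each called gene is therefore given with and without it, except where the text names the libraries used. Of 8 ductal epithelial markers 7 were above 1 CPM in at least 1 library, and CDH1 (E-cadherin) was at 0 in all 9. The ductal markers summed to between 1199 and 1261 CPM in parental, 1782 and 1932 CPM in TalaR-M replicates 1 and 3, and 1017 and 1153 CPM in TalaR-DF cells, and to 5829 CPM in TalaR-M replicate 2. All 6 fibroblast markers were detected, and they summed to between 1563 and 1632 CPM in parental, 3350 and 3408 CPM in TalaR-M replicates 1 and 3, and 899 and 1015 CPM in TalaR-DF cells, and to 1225 CPM in TalaR-M replicate 2. Of these, the collagen COL3A1 read 10.33 to 10.41 in parental cells and 11.53 and 11.50 in TalaR-M replicates 1 and 3 on the log2 scale, while the receptor PDGFRB read 6.06 to 6.19 and 3.62 and 3.41. Of 5 endothelial markers 4 were detected, with VWF at 0. They summed to between 28.9 and 32.1 CPM in parental and 2.92 and 3.24 CPM in TalaR-DF cells. In TalaR-M cells the sum was 9.05 to 10.3 CPM in replicates 1 and 3 and 5.91 CPM in replicate 2. Acinar markers, 3 of 5 detected, summed to at most 8.85 CPM, immune markers, 1 of 6 detected, to at most 3.45 CPM, and all 5 endocrine markers were at 0. All 9 libraries were labelled as PSN1 cells, so these sums are levels of genes and not counts of fibroblasts or endothelial cells. Whether the makeup of the cultures takes part in the Notch differences was not tested. In bulk RNA fewer cells of a type and less RNA per cell cannot be told apart.

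The deviation of TalaR-M replicate 2 reached the Notch genes in both directions. Over the 25 members with a mean above 2 on the log2 scale, its median deviation from the mean of replicates 1 and 3 was -0.99. ADAM17 deviated by -4.09, NOTCH2 by -2.35, SPEN by -2.34 and MAML1 by -2.08, while the short HES4 transcript deviated by 2.18 and RFNG by 1.80. JAG2 (0.25) and RBPJ (-0.12) were little moved. The same library also widens the standard errors of the 3-group model for every gene it displaces, including in the comparison of TalaR-DF with parental cells, where the standard error of NOTCH1 was 0.26 with it and 0.083 without it.

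**Figure D1:**
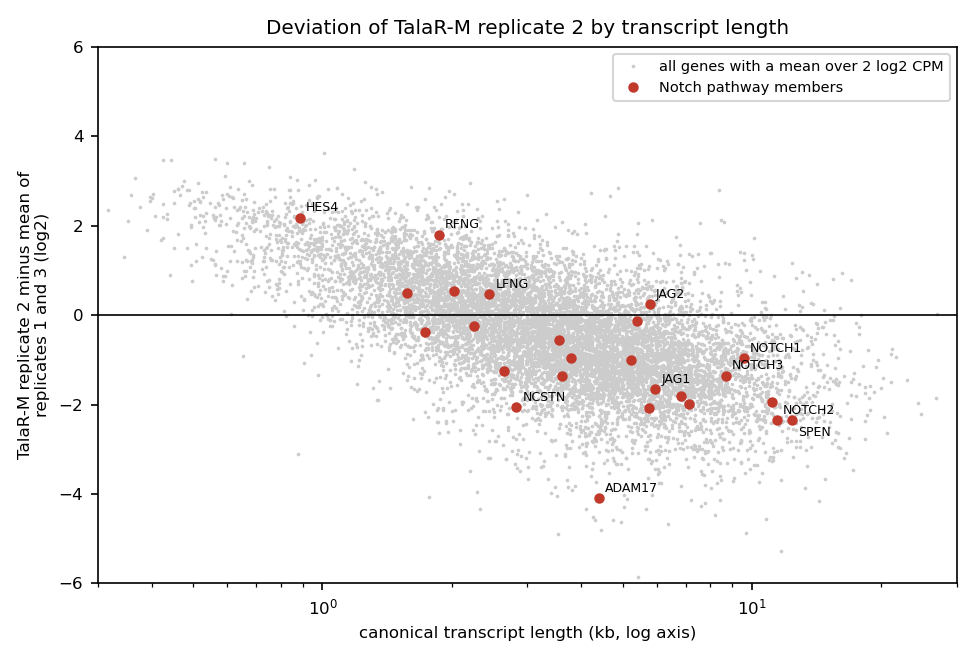
Deviation of TalaR-M replicate 2 from its sister replicates 1 and 3, taken as their mean (log2, vertical axis) against the length of the canonical transcript (kb, log axis), with all genes above a mean of 2 log2 CPM in grey and the Notch members in red. Members with long transcripts such as NOTCH2 (-2.35) lie below the line at 0, the short HES4 transcript (2.18) lies above it, and ADAM17 (-4.09) is the lowest member.

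In TalaR-M cells 2 of the 3 tested receptors, 2 of the 4 tested ligands and the receptor-modifying enzyme LFNG were called lower than in parental cells. Of the 30 members tested, 7 were called lower, namely NOTCH1, NOTCH3, JAG1, DLL1, LFNG, NUMB and DTX1, and 2 were called higher, DLL3 and DTX4. That is 9 of 30 members beside 13.3% of all genes tested (7.72% lower and 5.53% higher). Without TalaR-M replicate 2, 8 members were called beside 13.9% of all genes: JAG2 was then added, and DLL3 and NUMB were no longer at least 2-fold changed. DTX1 is among the lower calls of both resistant groups, but it entered the test only through the parental libraries and its resistant values were all cut at 0, so its call is no result of its own. In TalaR-DF cells 5 members were called, all lower: NOTCH3, JAG1, DLL1, LFNG and DTX1, beside 9.73% of all genes called in that comparison (7.49% lower and 2.25% higher). Between TalaR-M and TalaR-DF cells only DTX4 was called, and higher, beside 6.93% of all genes (5.29% higher and 1.64% lower). Without TalaR-M replicate 2 the same number of members was called in these comparisons, beside 11.4% and 8.36% of all genes. The comparisons of TalaR-M and TalaR-DF cells with parental cells share the 3 parental libraries, so that their results are not independent of each other. The paper's discussion lists Notch among pathways upregulated in TalaR cells, without naming the cell line or the genes. That statement is about a whole pathway, not single genes, and was not tested here.

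The median log2 fold change of the tested members in TalaR-M against parental cells was -0.72, where that of all genes tested was -0.09. Leaving out TalaR-M replicate 2, these medians were -0.25 and 0.01. In TalaR-DF against parental cells they were -0.27 and 0.01. At any fold, 10, 7 and 2 of the 30 members passed the test for TalaR-M and TalaR-DF cells, each against parental cells, and for the resistant groups against each other, beside 23.6%, 18.6% and 12.0% of all genes. Once TalaR-M replicate 2 was left out of the model these were 19, 18 and 14 members, beside 60.2%, 62.9% and 48.8% of all genes. The share of members with a change of any size was then near that of all genes. The libraries of TalaR-M and parental cells did not overlap for 16 members that were lower and 4 that were higher, beside 28.8% and 20.9% of all genes. For TalaR-DF against parental cells these were 17 and 4 members, beside 33.2% and 35.3%, and for TalaR-M against TalaR-DF cells 11 and 4 members, beside 24.1% and 16.7%.

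**Figure D2:**
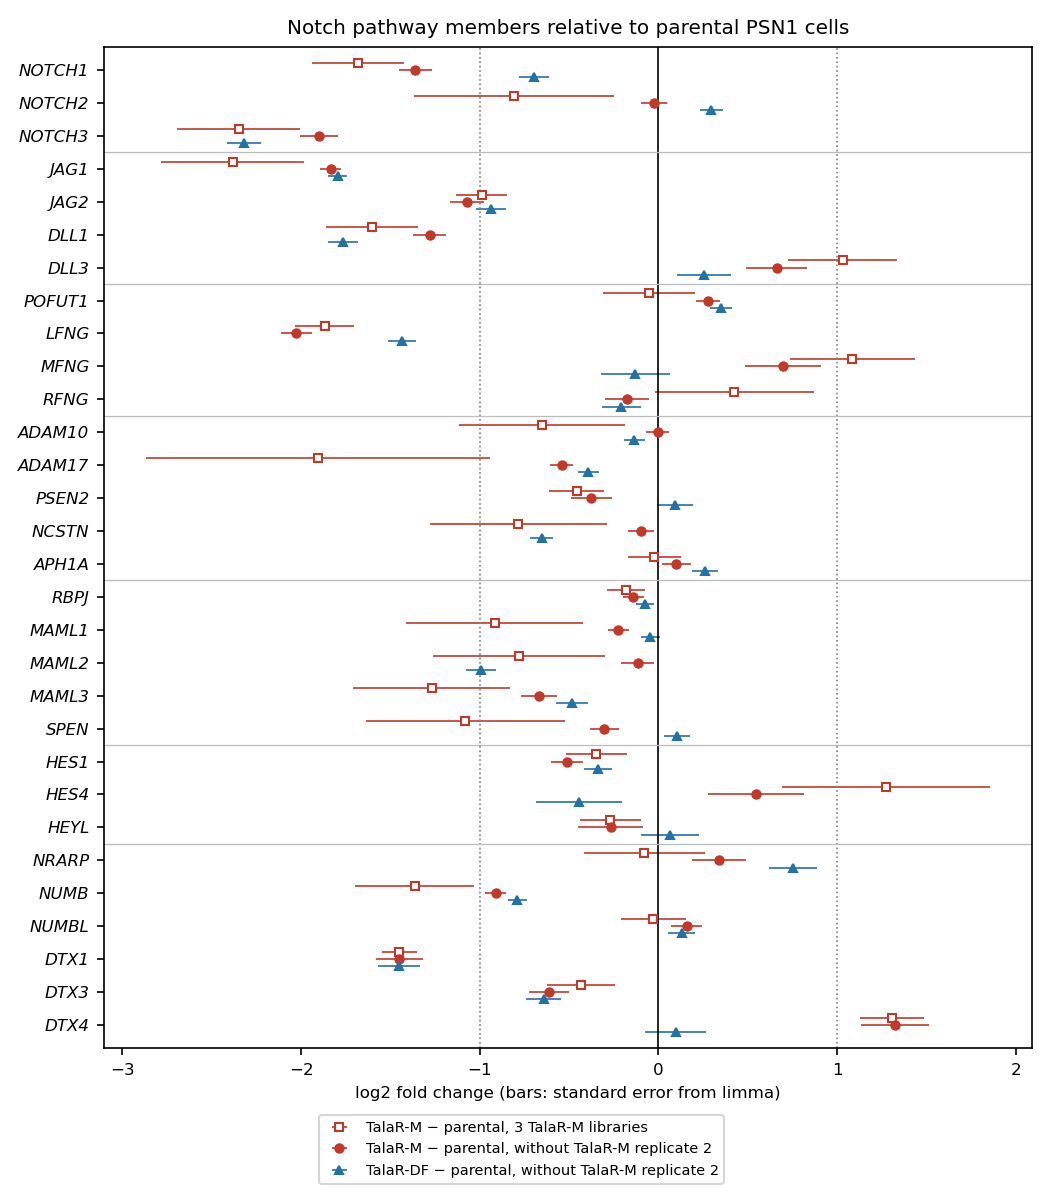
Log2 fold change against parental cells (horizontal axis, bars are the standard errors from limma) for the 30 members tested, ordered by role, with dotted lines at 2-fold. NOTCH3, JAG1, DLL1, LFNG and DTX1 lie beyond 2-fold lower for TalaR-M and TalaR-DF cells, and the bars of NOTCH2, ADAM17, MAML1 and SPEN are wide only where all 3 TalaR-M libraries are used.

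Among the receptors, NOTCH3 fell most. NOTCH3 (chromosome 19, 15159038 to 15200995 on GRCh38, minus strand, 33 exons) read 6.49, 6.47 and 6.60 in parental replicates 1 to 3, 4.49, 3.27 and 4.75 in TalaR-M, and 4.33, 4.24 and 4.03 in TalaR-DF cells. All 6 resistant libraries were below all parental ones, and TalaR-M replicate 2 was the lowest. The log2 fold change was -2.35 ± 0.35 (SE) in TalaR-M cells (limma, adjusted p = 0.00176), or -1.90 without replicate 2 (limma, adjusted p = 3.77e-08). In TalaR-DF cells it was -2.32 ± 0.35 (limma, adjusted p = 0.00229), about 4.99-fold lower than in parental cells. TalaR-M and TalaR-DF cells overlapped, with a difference of -0.03 that turned to 0.42 when TalaR-M replicate 2 was left out (limma, adjusted p = 0.00682).

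NOTCH1, the receptor altered in T cell leukaemia (chromosome 9, 136494433 to 136546048, minus strand, 34 exons), was graded over the 3 groups. It read 7.84, 7.74 and 7.85 in parental, 6.37, 5.49 and 6.53 in TalaR-M, and 7.14, 7.28 and 6.93 in TalaR-DF cells. The groups did not overlap, with TalaR-DF libraries between the other two groups. NOTCH1 in TalaR-M cells fell by 1.68 on the log2 scale (SE 0.26, limma, adjusted p = 0.00222), or -1.36 without replicate 2 (limma, adjusted p = 1.94e-07). In TalaR-DF cells the difference was -0.69, which did not pass in the 3-group model (limma, adjusted p = 0.108) and passed at less than 2-fold without TalaR-M replicate 2 (limma, adjusted p = 2.05e-05). NOTCH1 was lower in TalaR-M than in TalaR-DF cells with a log2 difference of -0.99, just short of 2-fold (limma, adjusted p = 0.0437), or -0.67 without replicate 2.

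NOTCH2, a close relative of NOTCH1 with near-identical NOTCH2NL copies on the same chromosome, read 8.56 to 8.60 in parental and 8.78 to 9.01 in TalaR-DF cells. In TalaR-M cells it read 8.58, 6.20 and 8.52, so that replicate 2 alone was low. Its log2 fold change in TalaR-M against parental cells was -0.81 with all libraries (limma, adjusted p = 0.316) and -0.02 without replicate 2, with an interval from -0.18 to 0.14. Reads of NOTCH2 and its copies may have been split in the counting, which leaves its level uncertain. NOTCH4, a receptor of endothelial cells, was at 0 in 7 libraries and read 0.04 and 0.95 in the others, both of them TalaR-M. It was too low to be tested.

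Per kilobase of transcript, NOTCH2 had the highest value of the receptors in every group, within the uncertainty that its copies leave. On the scale of log2 CPM per kb, parental means were 5.06 for NOTCH2, 4.55 for NOTCH1 and 3.40 for NOTCH3. In TalaR-DF cells they were 5.36, 3.86 and 1.08. The order was the same in both groups and the libraries of neighbouring receptors did not overlap, while the distance between NOTCH2 and NOTCH3 was wider in TalaR-DF cells.

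**Figure D3:**
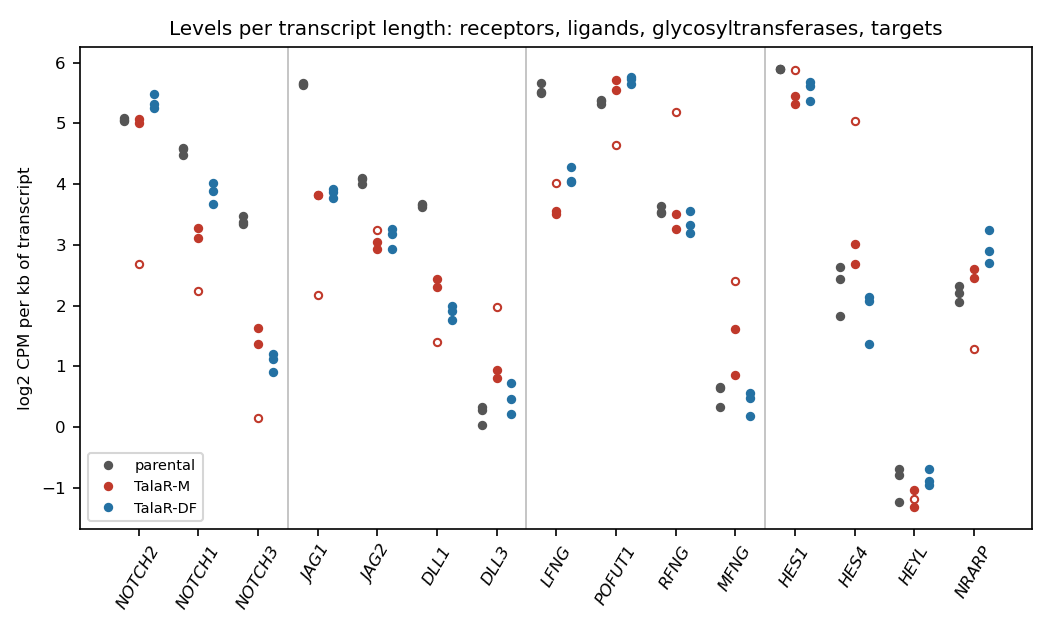
Level of receptors, ligands, glycosyltransferases and targets in each library as log2 CPM per kb of canonical transcript (vertical axis), 3 libraries per group, with TalaR-M replicate 2 as open points. JAG1, LFNG and HES1 have parental means of 5.65, 5.56 and 5.90, and HEYL is the lowest gene shown.

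Among the ligands, JAG1, JAG2 and DLL1 were all lower in the resistant cells. JAG1 (Jagged 1, chromosome 20, 10637684 to 10673999, minus strand, 26 exons) was the most abundant ligand per kilobase in parental cells, with 5.65 log2 CPM per kb. It read 8.20, 8.22 and 8.24 in parental, 6.39, 4.74 and 6.39 in TalaR-M, and 6.44, 6.49 and 6.34 in TalaR-DF cells. Every resistant library was below every parental library, and TalaR-M replicates 1 and 3 lay within the range of TalaR-DF cells. JAG1 in TalaR-M cells changed by -2.38 on the log2 scale (SE 0.40, limma, adjusted p = 0.00344), and by -1.84 without replicate 2 (limma, adjusted p = 4.68e-10). It changed by -1.80 in TalaR-DF cells (SE 0.40, limma, adjusted p = 0.0156). That adjusted p was above 0.05 when any 1 parental or TalaR-DF library was left out, at 0.0525 to 0.063, which ended the call, and was 2.39e-10 when TalaR-M replicate 2 was left out instead.

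DLL1 (Delta-like 1, chromosome 6, 170282206 to 170306565, minus strand) read 5.58, 5.59 and 5.55 in parental, 4.23, 3.33 and 4.35 in TalaR-M, and 3.83, 3.68 and 3.91 in TalaR-DF cells. The resistant libraries were all below the parental ones. DLL1 changed by -1.60 (SE 0.26, limma, adjusted p = 0.00291) in TalaR-M and by -1.77 (SE 0.26, limma, adjusted p = 0.0021) in TalaR-DF cells on the log2 scale. Without TalaR-M replicate 2 the TalaR-M change was -1.28 (limma, adjusted p = 3.52e-07), and DLL1 was then 0.49 higher in TalaR-M than in TalaR-DF cells (limma, adjusted p = 0.00127). With all libraries that difference was 0.16 (limma, adjusted p = 0.66).

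JAG2 (Jagged 2, chromosome 14, 105140982 to 105168824, minus strand) read 6.62, 6.53 and 6.63 in parental, 5.46, 5.77 and 5.58 in TalaR-M, and 5.70, 5.80 and 5.46 in TalaR-DF cells. Its TalaR-M replicate 2 was not low, and both resistant groups lay near the 2-fold line. The log2 fold change was -0.99 (SE 0.14, limma, adjusted p = 0.00154) in TalaR-M and -0.94 (SE 0.14, limma, adjusted p = 0.00243) in TalaR-DF cells, both short of 2-fold. Without TalaR-M replicate 2 the TalaR-M value was -1.07 and JAG2 was called (limma, adjusted p = 1.63e-06).

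DLL3, a ligand that acts mostly inside its own cell as an inhibitor, was the only ligand called higher, at low counts of 29 to 59 reads per library. DLL3 read 1.03, 1.33 and 1.28 in parental, 1.81, 2.98 and 1.94 in TalaR-M, and 1.46, 1.22 and 1.73 in TalaR-DF cells. TalaR-M replicate 2 was the highest library. The log2 fold change in TalaR-M against parental cells was 1.03 (SE 0.31, limma, adjusted p = 0.0421) and 0.66 without replicate 2 (limma, adjusted p = 0.00545), short of 2-fold. DLL4, a ligand of endothelial tip cells, was at 0 in all 9 libraries.

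**Figure D4:**
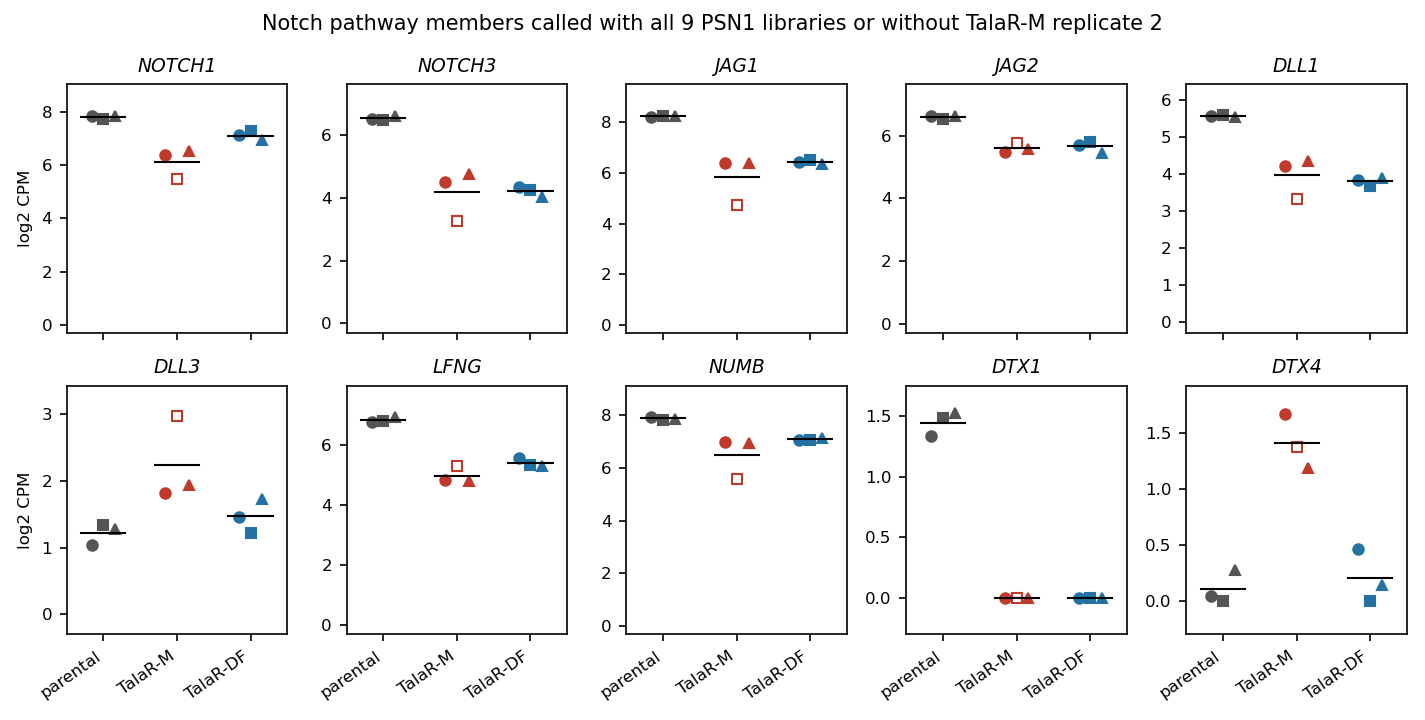
Log2 CPM of the 10 members called in at least 1 comparison with all libraries or without TalaR-M replicate 2 (open squares), by group, with circles, squares and triangles for replicates 1, 2 and 3 and lines at the group means. For NOTCH3, JAG1, JAG2, DLL1, LFNG and NUMB all 6 resistant libraries lie below the 3 parental ones, and DTX1 is at 0 in all 6.

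The glycosyltransferases modify the receptors. POFUT1 adds the O-fucose that receptors need, and the Fringe enzymes LFNG, MFNG and RFNG extend it and so change which ligands a receptor answers to. LFNG (Lunatic fringe, chromosome 7, 2512529 to 2529177, plus strand, 8 exons) was the only one called. It read 6.80, 6.81 and 6.95 in parental, 4.84, 5.30 and 4.81 in TalaR-M, and 5.58, 5.35 and 5.33 in TalaR-DF cells. The parental libraries were the highest, and TalaR-M replicate 2 was the highest of its group. LFNG in TalaR-M cells changed by -1.87 on the log2 scale (SE 0.17, limma, adjusted p = 9.98e-05), by -2.03 without replicate 2, and by -1.44 in TalaR-DF cells (SE 0.17, limma, adjusted p = 0.000597). Without replicate 2 LFNG was lower in TalaR-M than in TalaR-DF cells, with a difference of -0.59 (limma, adjusted p = 0.000184). With all libraries that difference was -0.43 (limma, adjusted p = 0.13).

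MFNG (Manic fringe) and RFNG (Radical fringe) were not called. MFNG ranged from 1.37 to 1.70 in parental, from 1.91 to 3.45 in TalaR-M and from 1.24 to 1.61 in TalaR-DF cells, and its TalaR-M difference was 1.09 with all libraries (limma, adjusted p = 0.0557) and 0.70 without replicate 2 (limma, adjusted p = 0.0149). RFNG differed from parental cells by 0.42 in TalaR-M cells with all libraries, by -0.18 without replicate 2 and by -0.21 in TalaR-DF cells, none of which passed the test. POFUT1 was 0.35 higher in TalaR-DF than in parental cells (limma, adjusted p = 0.447, or 0.000307 without TalaR-M replicate 2). In parental cells LFNG had 5.56 log2 CPM per kb, against 5.36 for POFUT1, 3.57 for RFNG and 0.54 for MFNG.

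None of the 5 protease genes was called in any comparison. They are ADAM10 and ADAM17, which shed the outer part of the receptor, and PSEN2, NCSTN and APH1A, which encode subunits of γ-secretase. ADAM17 read 5.72, 1.64 and 5.75 in TalaR-M replicates 1 to 3, against 6.23 to 6.30 in parental cells, so that its log2 fold change of -1.91 had a standard error of 0.96 and shrank to -0.54 without replicate 2. NCSTN (nicastrin) differed from parental cells by -0.65 in TalaR-DF cells (limma, adjusted p = 0.464, or 3.85e-06 without TalaR-M replicate 2). In TalaR-M cells the NCSTN difference was -0.78 with all libraries and -0.10 without replicate 2. ADAM10 in TalaR-M cells without replicate 2 differed from parental cells by -0.0037, with an interval from -0.15 to 0.14.

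The 5 genes of the nuclear complex, RBPJ, its co-activators MAML1, MAML2 and MAML3 and its co-repressor SPEN, were not called either. RBPJ ranged from 7.06 to 7.08 in parental, from 6.80 to 6.99 in TalaR-M and from 6.98 to 7.01 in TalaR-DF cells, and its differences from parental cells were -0.18 in TalaR-M cells (-0.14 without replicate 2) and -0.08 in TalaR-DF cells. Between the resistant groups MAML2 passed the test, short of 2-fold, without TalaR-M replicate 2 but not with all libraries. It read 5.01, 4.96 and 5.16 in parental, 4.95, 2.93 and 4.90 in TalaR-M, and 4.00, 4.00 and 4.15 in TalaR-DF cells. TalaR-DF cells differed from parental cells by -0.99 (limma, adjusted p = 0.223, or 1.22e-06 without TalaR-M replicate 2). TalaR-M cells were 0.21 higher than TalaR-DF cells with all libraries (limma, adjusted p = 0.77). Without replicate 2 they were 0.87 higher (limma, adjusted p = 1.76e-05). MAML3 differed from parental cells by -1.27 in TalaR-M (limma, adjusted p = 0.0727) and by -0.49 in TalaR-DF cells (limma, adjusted p = 0.558) with all libraries. In the model without TalaR-M replicate 2 these were -0.67 and -0.49, which passed the test short of 2-fold (limma, adjusted p = 0.000136 and 0.000573).

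None of the target transcription factors was called in any comparison with all libraries or without TalaR-M replicate 2. HES1, the main Notch-induced repressor (chromosome 3, 194136148 to 194138732, plus strand, 4 exons), read 6.55 in all 3 parental libraries, 5.98, 6.53 and 6.10 in TalaR-M, and 6.34, 6.28 and 6.02 in TalaR-DF cells. All resistant libraries were lower than the parental ones, and TalaR-M replicate 2 was nearest to them. Its log2 fold change was -0.35 in TalaR-M (limma, adjusted p = 0.172) and -0.34 in TalaR-DF cells (limma, adjusted p = 0.239). Without TalaR-M replicate 2 these were -0.51 (limma, adjusted p = 0.000372) and -0.34 (limma, adjusted p = 0.00282), both short of 2-fold. HES4 and HEYL were low. HES4 ranged from 1.65 to 2.47 in parental, from 2.50 to 4.86 in TalaR-M and from 1.19 to 1.97 in TalaR-DF cells, and HEYL from 0.71 to 1.34 over all libraries. HES4 in TalaR-M cells was 1.72 higher than in TalaR-DF cells with all libraries (limma, adjusted p = 0.0966). Without replicate 2 it was 0.99 higher (limma, adjusted p = 0.00972), and 1 of 18 settings called it. Against parental cells HES4 in TalaR-M cells was 1.27 higher (limma, adjusted p = 0.148), or 0.55 without replicate 2 (limma, adjusted p = 0.099). HEY1 and HEY2 were at 0 in all 9 libraries.

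Promoters of these targets are shown because the RBPJ motif lies in each promoter that was found for a target transcription factor. It was not in that of NRARP, a regulator that Notch also induces. Promoters were taken from RefSeq on GRCh38.p14, from 250 bases before to 50 bases after the gene start, for 28 of the 34 members. The RBPJ motif GTGGGAA, searched on both strands, was in 6 of these 28 members, namely RBPJ, SPEN, HES1, HES4, HEY2 and HEYL, which is 6 of their 35 promoters, beside 6.25% of all 35116 promoters. HES1, HES4, HEY2 and HEYL are all the target transcription factors with a promoter entry. In HES1 and HES4 the motif stood on the sense strand, starting 85 and 77 bases before the gene start, and in HEYL on the antisense strand, 178 bases before it. The capitals mark the motif, read as TTCCCAC where it lies on the antisense strand.
HES1 (chr3:194135898-194136197, plus strand): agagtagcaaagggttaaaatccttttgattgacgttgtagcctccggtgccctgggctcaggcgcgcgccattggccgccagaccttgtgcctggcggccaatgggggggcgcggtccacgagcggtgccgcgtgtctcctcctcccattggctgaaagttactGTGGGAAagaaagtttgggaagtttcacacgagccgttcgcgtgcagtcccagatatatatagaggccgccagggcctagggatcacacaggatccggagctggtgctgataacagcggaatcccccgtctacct
HES4 (chr1:1000048-1000347, minus strand): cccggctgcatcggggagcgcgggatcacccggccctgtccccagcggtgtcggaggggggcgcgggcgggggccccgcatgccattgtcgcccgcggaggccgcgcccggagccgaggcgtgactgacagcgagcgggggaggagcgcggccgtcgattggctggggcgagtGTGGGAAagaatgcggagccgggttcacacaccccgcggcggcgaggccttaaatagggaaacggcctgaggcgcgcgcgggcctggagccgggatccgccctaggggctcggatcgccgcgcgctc
HEYL (chr1:39639594-39639893, minus strand): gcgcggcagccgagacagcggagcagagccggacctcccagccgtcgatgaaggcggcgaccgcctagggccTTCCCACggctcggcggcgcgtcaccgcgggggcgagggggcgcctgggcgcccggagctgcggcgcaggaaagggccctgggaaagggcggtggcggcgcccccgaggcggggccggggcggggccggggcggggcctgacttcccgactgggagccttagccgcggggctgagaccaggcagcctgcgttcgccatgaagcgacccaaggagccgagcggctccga

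The promoters of NOTCH1, NOTCH3, JAG1 and JAG2 held no GTGGGAA in this window, and neither did that of NRARP. JAG1 and NOTCH3 are shown as the ligand and the receptor with the largest fall in TalaR-M cells, and their sequences have no capitals because the motif is not in them.
JAG1 (chr20:10673950-10674249, minus strand): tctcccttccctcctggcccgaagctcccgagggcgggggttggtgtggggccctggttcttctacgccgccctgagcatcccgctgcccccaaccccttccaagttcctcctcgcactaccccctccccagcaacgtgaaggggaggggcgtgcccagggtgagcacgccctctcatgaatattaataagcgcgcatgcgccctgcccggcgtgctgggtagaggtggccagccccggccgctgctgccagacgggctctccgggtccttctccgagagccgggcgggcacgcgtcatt
NOTCH3 (chr19:15200946-15201245, minus strand): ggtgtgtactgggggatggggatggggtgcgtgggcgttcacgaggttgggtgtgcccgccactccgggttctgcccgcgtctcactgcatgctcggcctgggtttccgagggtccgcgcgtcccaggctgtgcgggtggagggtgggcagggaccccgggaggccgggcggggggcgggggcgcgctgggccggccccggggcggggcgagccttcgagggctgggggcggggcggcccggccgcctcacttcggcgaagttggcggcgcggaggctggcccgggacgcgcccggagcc

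The E-box CACGTG, a palindrome bound by many basic helix-loop-helix factors, was in 1 of the 35 promoters, that of ADAM10, beside 7.26% of all promoters. The N-box CACNAG, which HES proteins bind, was in 14 of the 35 promoters of members, searched on both strands, beside 38.0% of all promoters, a share near it. NOTCH1, NOTCH3 and LFNG were among the members with a match and JAG1 and JAG2 were not. A match of letters is not a binding site, and its absence says nothing of the factor.

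Among the regulators, DTX1 was called lower and DTX4 higher in TalaR-M against parental cells, both at low counts. They encode Deltex ubiquitin ligases, which act on Notch receptors. DTX1 (chromosome 12, 113056730 to 113098028, plus strand) read 1.34, 1.49 and 1.53 in parental cells, from 36 to 38 reads, and 0 in all 6 resistant libraries. It passed the filter on low values only through the parental libraries, and a value of 0 hides any amount up to 1 CPM, so that it was at least 2.73-fold lower in TalaR-M and in TalaR-DF cells. DTX4 (chromosome 11, 59171430 to 59208588, plus strand) read 0.04, 0 and 0.28 in parental, 1.67, 1.38 and 1.19 in TalaR-M, and 0.47, 0 and 0.14 in TalaR-DF cells. All TalaR-M libraries were above all others, replicate 2 included. DTX4 in TalaR-M cells exceeded parental cells by 1.31 (SE 0.18, limma, adjusted p = 0.00114) and TalaR-DF cells by 1.21 (SE 0.18, limma, adjusted p = 0.00358) on the log2 scale. Leaving out replicate 2 gave 1.33 (limma, adjusted p = 9.29e-05) and 1.23 (limma, adjusted p = 0.000267), and values cut at 0 in both other groups make them lower limits. Adding 2 CPM to every value lowered these to 0.80 and 0.76 and ended both calls.

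NUMB, an endocytic adaptor that removes Notch receptors from the membrane (chromosome 14, 73275107 to 73458617, minus strand, 13 exons), read 7.92, 7.82 and 7.86 in parental, 6.98, 5.59 and 6.93 in TalaR-M, and 7.06, 7.04 and 7.13 in TalaR-DF cells. The resistant libraries were all lower than the parental ones. NUMB in TalaR-M cells changed by -1.36 on the log2 scale (SE 0.34, limma, adjusted p = 0.0206), but by -0.91 without replicate 2 (limma, adjusted p = 1.16e-07), short of 2-fold. In TalaR-DF cells the difference was -0.79 (limma, adjusted p = 0.159, or 1.51e-07 without TalaR-M replicate 2). Its relative NUMBL differed from parental cells by 0.16 in TalaR-M cells without replicate 2 and by 0.13 in TalaR-DF cells and did not pass the test.

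NRARP, a feedback inhibitor that Notch itself induces, ranged from 3.46 to 3.72 in parental, from 2.69 to 4.00 in TalaR-M and from 4.10 to 4.64 in TalaR-DF cells. It was 0.75 higher in TalaR-DF than in parental cells (limma, adjusted p = 0.183, or 0.000446 without TalaR-M replicate 2), the direction opposite to HES1. DTX3, the third Deltex gene, differed from parental cells by -0.64 in TalaR-DF cells (limma, adjusted p = 0.049), short of 2-fold. In TalaR-M cells its difference was -0.43 with all libraries (limma, adjusted p = 0.134) and -0.61 without replicate 2 (limma, adjusted p = 0.000548). Counting by strand is not stated in the sources used here, so reads of a gene and of an antisense partner cannot be told apart for any member.

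A wider list of 62 Notch genes that are not members was also counted, of which 60 were in the table and 52 were tested. It holds further ligands, ubiquitin ligases, processing enzymes, nuclear cofactors, HES relatives and frequent targets. In TalaR-M against parental cells 5 of the 52 were called higher and 4 lower, in TalaR-DF against parental cells 3 higher and 5 lower, and in TalaR-M against TalaR-DF cells 5 higher and 1 lower. With TalaR-M replicate 2 left out, these were 6 and 3, 3 and 5, and 6 and 1. The backgrounds are those given for the members. The rises counted in both TalaR-M comparisons include NEURL1B and DNER, which read 0 in all parental libraries. Both passed the filter on low values only through the TalaR-M libraries, so their calls are no results of their own.

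The largest rises in TalaR-M against parental cells were those of TLE4, NEURL1B and HES7. TLE4, a Groucho co-repressor that HES proteins recruit, was at 0 in parental cells, read 4.60, 3.23 and 4.33 in TalaR-M and 0.67, 0.68 and 1.29 in TalaR-DF cells. It was higher in TalaR-M than in TalaR-DF cells by 3.17 on the log2 scale (SE 0.34, limma, adjusted p = 0.000778), or by 3.59 without replicate 2. NEURL1B, a ubiquitin ligase that acts on Notch ligands, was at 0 in all parental and TalaR-DF libraries and read 3.13, 2.39 and 3.30 in TalaR-M cells. Its group mean of 2.94 in TalaR-M cells is read against the limit of 1 CPM and is not a measured fold. NEURL1B entered the test only through the TalaR-M libraries and its other values were cut at 0, so its call is no result of its own. TLE2, a relative of TLE4, was higher in TalaR-M cells by 1.31 than in TalaR-DF cells (limma, adjusted p = 0.00742), or by 1.08 without replicate 2. HES7, a repressor of the segmentation clock, read 0, 0.53 and 0 in parental cells. It was higher by 2.65 in TalaR-M cells (limma, adjusted p = 0.00389), by 2.08 without replicate 2, and by 1.60 in TalaR-DF cells (limma, adjusted p = 0.0427) on the log2 scale. With parental values cut at 0, these are lower limits and no measured folds.

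The largest falls were of BHLHE41 and BHLHE40, basic helix-loop-helix repressors related to HES proteins and known from the circadian clock. BHLHE41 read 8.56, 8.52 and 8.49 in parental, 6.35, 5.11 and 6.19 in TalaR-M, and 5.36, 5.46 and 5.33 in TalaR-DF cells. It changed by -2.64 in TalaR-M cells (limma, adjusted p = 0.000363), by -2.25 without replicate 2, and by -3.14 in TalaR-DF cells (limma, adjusted p = 0.000163) on the log2 scale. BHLHE40 changed by -2.19 in TalaR-M cells (limma, adjusted p = 0.00595), or by -1.63 without replicate 2.

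MYC, a direct Notch target in T cell leukaemia, read 9.99, 9.84 and 9.86 in parental, 9.62, 8.77 and 9.49 in TalaR-M, and 11.04, 10.92 and 11.00 in TalaR-DF cells. The TalaR-DF libraries were the highest: MYC rose by 1.09 in TalaR-DF against parental cells (limma, adjusted p = 0.0107) and was lower in TalaR-M than in TalaR-DF cells, with a log2 difference of -1.70 (limma, adjusted p = 0.00212), or -1.43 without replicate 2. CDKN1A, a cell cycle inhibitor, read 2.62, 2.18 and 2.43 in parental and 0.67, 0.22 and 0.79 in TalaR-DF cells, a log2 change of -1.85 (limma, adjusted p = 0.000999). In TalaR-M cells it read 2.20, 1.64 and 1.51 and was called higher than in TalaR-DF cells, with and without replicate 2. That call was lost with only the 2 groups compared in the model, and the TalaR-DF values lay near the limit of 1 CPM. The TalaR-M values overlapped those of parental cells, with a log2 change of -0.62 (limma, adjusted p = 0.0937). Also against parental cells, APH1B, an alternative γ-secretase subunit to APH1A, fell by 1.35 in TalaR-DF cells (limma, adjusted p = 0.000648), and CTBP2, a transcriptional co-repressor, rose by 1.01 (limma, adjusted p = 0.0197).

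**Figure D5:**
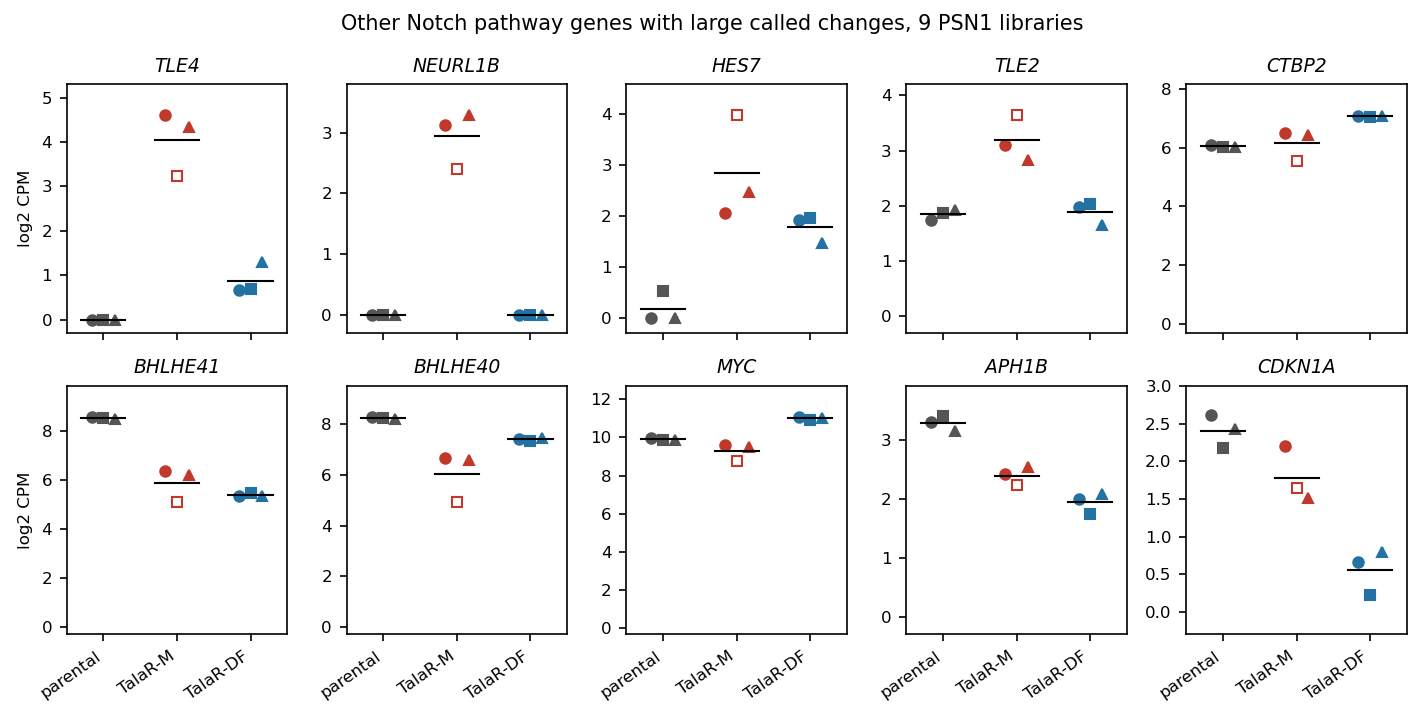
Log2 CPM of 10 other Notch pathway genes with large called changes, by group, with circles, squares and triangles for replicates 1, 2 and 3, TalaR-M replicate 2 open, and lines at the group means. The TalaR-M libraries are the highest for TLE4 and NEURL1B (means 4.05 and 2.94), and BHLHE41 lies at 5.33 to 6.35 in resistant libraries other than TalaR-M replicate 2, below 8.49 to 8.56 in parental ones.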

How the data were processed

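PSN1 RNAseq libraries of the parental, TalaR-M and TalaR-DF groups were used, 3 replicates each, made with a stranded poly(A) kit. The authors deposited log2 CPM values of protein-coding genes, and the values themselves show that 1 count, scaled by library size, was added before the log and that values under 0 were set to 0. Per the labels, the genome build was hg38, and the aligner, counter, annotation and normalization tool are not given in the sources used here. Columns that name maintained or withdrawn cells were read as TalaR-M or TalaR-DF, respectively. No column was left without a sample. Other cell lines and short treatments were not analysed here.

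Genes above 1 CPM in at least 3 of the 9 libraries were tested with limma 3.58.1 in R 4.3.3, in a single model of the 3 groups with a mean-variance trend and Benjamini-Hochberg adjustment over 12471 genes. Calls needed an adjusted p under 0.05 and a log2 change of 1 or more in either direction. The values were used with no further pseudocount, and a fold change understates the change of low genes. The test was checked on simulated data that held no library set apart like TalaR-M replicate 2. That check therefore says nothing of how the test behaves with such a library. 1 CPM stood for between 6.97 and 14.54 reads, since all values under 50 CPM gave whole reads within 0.05, and depth was used for precision only. Members were named with every value where called with all libraries or without TalaR-M replicate 2, and of the other Notch genes at most the 3 largest called rises and falls of each comparison were named. A gene that this rule would name is not reported here. The members and gene lists were chosen with earlier results of these data known. Positions and transcript lengths came from GENCODE 44 on GRCh38, promoters from RefSeq. Alternatives changed the pseudocount, filter, scaling, trend, weights, block, samples and threshold, and left out each library in turn.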

Additional observations from a re-analysis of the deposited data

How the results depend on the processing

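The calls of NOTCH1, NOTCH3, JAG1, DLL1 and LFNG in TalaR-M against parental cells, and of NOTCH3, DLL1 and LFNG in TalaR-DF against parental cells, held under every alternative tried. The calls of DTX1 were fixed by the filter and by the cut at 0, so that its alternatives say nothing of stability. Over the changes of 10 named members in 3 comparisons (29 pairs), 443 of 485 alternative values kept their direction and side of the threshold, 27 lost the call, 6 gained it and 9 reversed. None of the reversed values was called. DTX4 in TalaR-DF against parental cells was -0.036 without TalaR-DF replicate 1 (range with each library left out -0.036 to 0.20). In TalaR-M against TalaR-DF cells NOTCH3 was 0.12 when libraries were rescaled by the median ratio, 0.44 with array weights, 0.42 without TalaR-M replicate 2 and 0.033 without TalaR-DF replicate 1 (range -0.32 to 0.42). There JAG2 was 0.10 when rescaled, 0.019 without TalaR-M replicate 1 and 0.022 without TalaR-DF replicate 2 (range -0.15 to 0.022), and DLL1 was -0.027 without TalaR-M replicate 3 (range -0.027 to 0.49). The causes were not tested.

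With no fold threshold, TalaR-M against parental cells gave 2938 genes and 15 other Notch genes, TalaR-DF against parental cells 2315 and 13, and TalaR-M against TalaR-DF cells 1502 genes and 2 members. With only the 2 groups compared in the model, the last comparison gave 484 genes and 3 other Notch genes. Its single member call, DTX4, was lost with 2 CPM added and was not tested above a filter of 5 CPM, which left 0 members in both cases, and array weights gave 2 members. DLL3 lost its call in TalaR-M against parental cells under most alternatives, with an adjusted p of up to 0.141 (limma).

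Leaving out each library in turn gave 7 to 11 members, 1298 to 2045 genes and 9 to 11 other Notch genes in TalaR-M against parental cells, 4 to 5, 983 to 1417 and 4 to 8 in TalaR-DF against parental cells, and 1 to 3, 578 to 1043 and 5 to 9 in TalaR-M against TalaR-DF cells. The 8 other Notch genes of TalaR-DF against parental cells became 4 without parental replicate 2 and 5 without any other parental or TalaR-DF library. The member of TalaR-M against TalaR-DF cells became 3 without TalaR-M replicate 1 and 2 without TalaR-M replicate 3, when NOTCH1 was called. Replicate numbers did not pair the libraries: 2 of 9 pairs correlated above 0.1 (range -0.311 to 0.158), and 1 library correlated best with its own number. With the replicate number as a block, 8, 5 and 1 members were called in the 3 comparisons. Rescaling took the all-gene median in TalaR-M against parental cells from -0.09 to 0.01 (log2). Amounts under 1 CPM are hidden, which limits DTX1, DTX4, NOTCH4, DLL4, HEY1 and HEY2.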
